A study of Chimonocalamus delicatus with 27 samples.

Results

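The 2 genes described here, PH02Gene36096 and PH02Gene27584, carry the symbol IRL (isoflavone reductase-like) in expression tables of Chimonocalamus delicatus, a fragrant bamboo. They were chosen by their deposited FPKM (transcript level scaled to length and library size), abundant in the 0.5-year stem and nearly lost from older stems, so their levels across growth stages are a description and were not tested. They are 2 of the 50936 genes whose identifiers stand in both deposited tables, which hold 55972 genes for growth stages and 57356 for plant parts. The table describes PH02Gene36096 as similar to an IRL-like isoflavone reductase homologue of the grass Aegilops tauschii and PH02Gene27584 as similar to the isoflavone reductase IRL of barley. Both genes passed the filter on low values in both sets.

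Isoflavone reductase-like proteins are NADPH-dependent reductases. They are related to the isoflavone reductase of legumes, which works in phytoalexin synthesis, and to the pinoresinol-lariciresinol and phenylcoumaran benzylic ether reductases, which work on lignans. In maize a protein of this kind was described as responding to sulphur starvation and glutathione. The enzymes of monolignol synthesis make the alcohols from which both lignin and lignans are built. Symbols and descriptions in the tables come from similar genes of other species, and no enzyme activity was measured.

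The study asked how aroma composition and terpene genes differ with the age and the part of the bamboo. RNA sequencing gave 27 libraries, 3 for each of 9 groups. A growth stage set held the bamboo shoot and stems of 0.5, 1, 2 and 3 years (15 libraries). The plant part set held leaf, branch, rhizome and a stem (12 libraries), and since the labels give no age for that stem it is called the part-set stem here. The labels name no strain, treatment or genotype that separates groups beyond tissue and age. Whether the 3 libraries of a group are separate plants is not stated, and p-values therefore describe a spread between libraries that may be technical. In whole tissue, fewer cells of a type and less RNA per cell cannot be told apart.

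Growth stage libraries held 8615092 to 12422327 expected counts, and plant part libraries 6257623 to 9010973. Tissue markers followed the labels for leaf and shoot. The summed FPKM of light-harvesting, photosystem and Rubisco small chain genes was 26920 to 34480 in leaf and 81.8 to 112 in rhizome. Genes for replication licensing factors, A- and B-type cyclins and expansins summed to 832 to 1668 FPKM in the shoot and to 159 to 219 FPKM in the 12 stem libraries of the growth stage set. The 3 libraries of the 0.5-year stem were the most alike, though not within counting noise. Chi-square per degree of freedom of their counts was 1.76 to 2.41 between them, against 6.52 to 93.3 between libraries of the other groups. Rhizome libraries 2 and 3 were the least alike pair, with r = 0.745 across genes, and every other pair within a group had at least 0.898.

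PH02Gene36096 had 103, 196 and 184 FPKM in shoot libraries 1, 2 and 3, and 278, 265 and 300 FPKM in those of the 0.5-year stem. It had 5.43, 0.906 and 7.90 FPKM in the 1-year stem, 0.087, 7.68 and 0.241 FPKM in the 2-year stem, and 0.127, 0.370 and 0 FPKM in the 3-year stem. Every 0.5-year library lay above every shoot library, and every shoot library lay far above all 9 libraries of the older stems. The 2-year stem overlapped both the 1-year and the 3-year stem, while every 1-year library lay above every 3-year library. Library 2 of the 2-year stem stood among the 1-year libraries, and the other 2-year libraries stood among the 3-year ones.

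PH02Gene27584 had 147, 134 and 187 FPKM in shoot libraries 1, 2 and 3, and 259, 248 and 266 FPKM in those of the 0.5-year stem. It had 13.1, 3.22 and 15.1 FPKM in the 1-year stem, 0.623, 6.69 and 0.504 FPKM in the 2-year stem, and 0.654, 0.862 and 0.288 FPKM in the 3-year stem. The order was the same as for PH02Gene36096, with the 0.5-year libraries on top, the shoot below them without overlap, and the older stems far lower. Here too library 2 of the 1-year stem was the lowest of its group and library 2 of the 2-year stem the highest of its group.

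**Figure D1:**
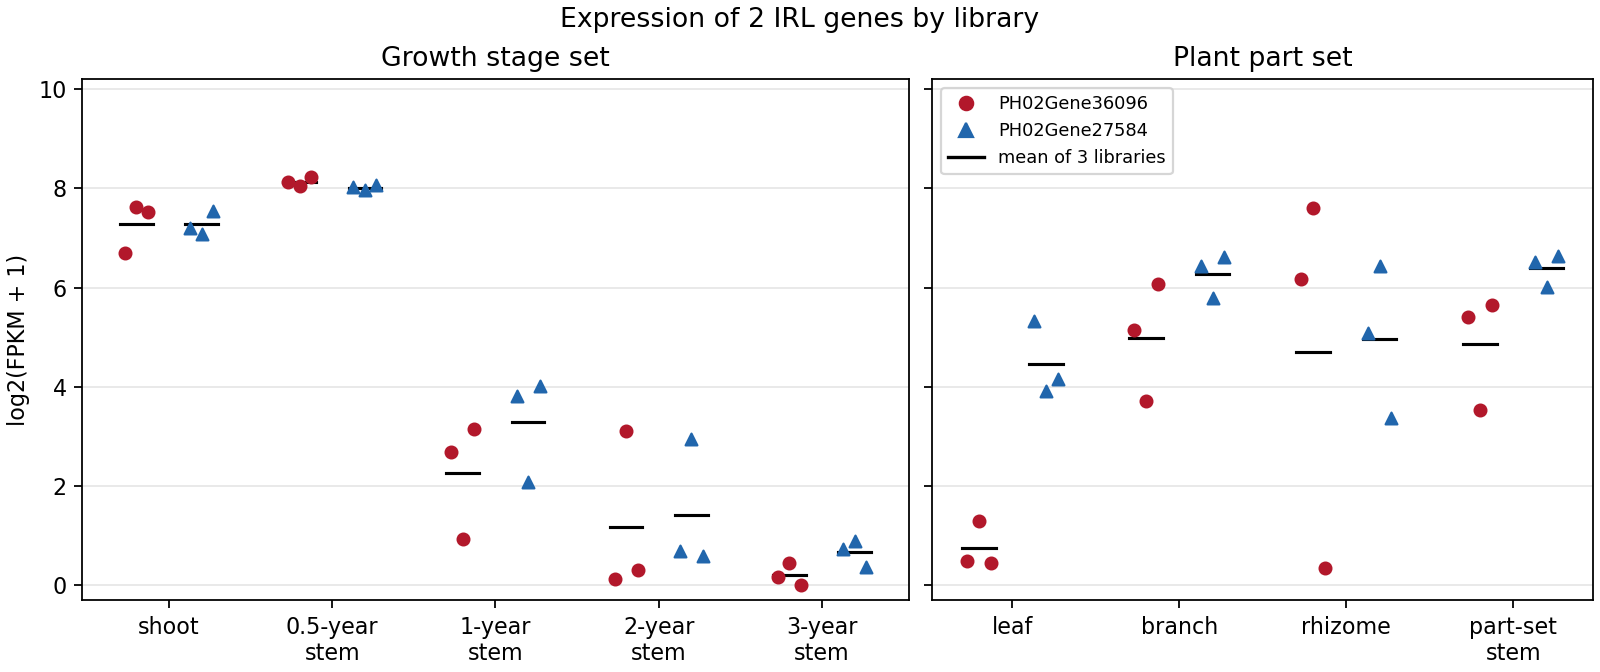
Expression of PH02Gene36096 (circles) and PH02Gene27584 (triangles) as log2(FPKM + 1) in each library, with bars at the mean of the 3 libraries on that scale, for growth stages (left) and plant parts (right). Both genes are highest in the 0.5-year stem and at 0.862 FPKM or less in every 3-year library, and in rhizome library 3 PH02Gene36096 has 0.274 FPKM while libraries 1 and 2 have 71.3 and 193 FPKM.

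The mean level of PH02Gene36096 was 281 ± 17.5 FPKM in the 0.5-year stem and 161 ± 50.4 FPKM in the shoot (SD, n = 3 each). By mean FPKM it ranked 163 among all 55972 genes of the growth stage table in the 0.5-year stem and 233 in the shoot. Its mean was 4.75 ± 3.55 FPKM in the 1-year stem, 2.67 ± 4.34 FPKM in the 2-year stem and 0.166 ± 0.188 FPKM in the 3-year stem, where 55.1% of genes were higher. The ratio of the 0.5-year mean to the shoot mean was 1.75, and to the 1-, 2- and 3-year means it was 59.2, 105 and 1696. The last of these ratios rests on a summed expected count of 6.42 in the 3-year stem, with library 3 at 0 counts, where 3 counts of the library total would be 0.348 CPM, counts scaled to library size (counting error only).

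For PH02Gene27584 the mean was 258 ± 9.24 FPKM in the 0.5-year stem and 156 ± 27.5 FPKM in the shoot, with ranks of 197 and 252. Its mean was 10.5 ± 6.37 FPKM in the 1-year stem, 2.60 ± 3.54 FPKM in the 2-year stem and 0.601 ± 0.291 FPKM in the 3-year stem. The ratio of the 0.5-year mean to the shoot mean was 1.65, and to the 1-, 2- and 3-year means it was 24.6, 99.1 and 429. For both genes 1 library decided the ratio to the 2-year stem. Without library 2 of the 2-year stem that ratio was 1713 for PH02Gene36096 and 458 for PH02Gene27584, near the ratios to the 3-year stem. Libraries 1 and 3 of the 2-year stem held 1 and 2.65 expected counts of PH02Gene36096, and 9 and 7 of PH02Gene27584. Without library 2 of the 3-year stem the ratio of PH02Gene36096 to that stem was 4424, from libraries with 2 and 0 expected counts. These high ratios therefore rest on few reads.

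Expected counts of PH02Gene27584 were whole numbers in every library, such as 2918 in shoot library 1, and so show no reads split in fractions. Those of PH02Gene36096 were mostly fractional, such as 1617.35 in that library. The genes share a symbol, so their summed FPKM, which depends little on how reads were split between them, is given as well. The sum averaged 317 FPKM in the shoot, 539 FPKM in the 0.5-year stem, 15.2 FPKM in the 1-year stem, 5.27 FPKM in the 2-year stem and 0.767 FPKM in the 3-year stem. PH02Gene36096 held 51.7% to 53.0% of that sum in the 0.5-year libraries and 41.2% to 59.4% in the shoot libraries. Its share was 22.0% to 34.3% in the 1-year libraries, all below every shoot and 0.5-year library. In the 2- and 3-year stems the sum was under 5 FPKM in every library but library 2 of the 2-year stem. That library had a sum of 14.4 FPKM and a share of 53.5%, from 93.65 and 103 expected counts of the 2 genes. The shares in the other libraries of these stems, 0% to 32.3%, rest on few reads. The share of 22.0% in the 1-year stem also comes from a library with a low sum, 4.13 FPKM.

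**Figure D2:**
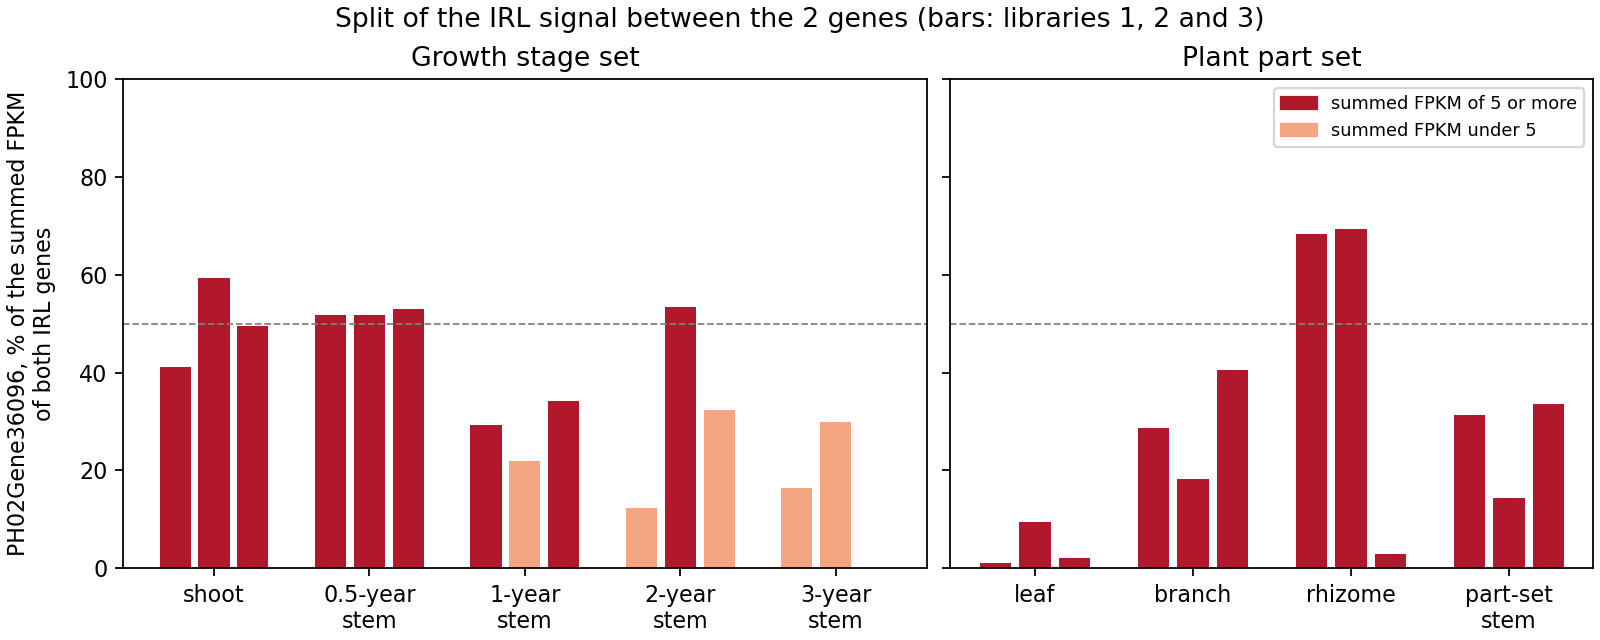
Share of the summed FPKM of both IRL genes held by PH02Gene36096, in percent, with 1 bar for each of libraries 1, 2 and 3 in every group, pale where the sum is under 5 FPKM and a dashed line at equal shares. The share lies at 51.7% to 53.0% in the 0.5-year stem, 1.04% to 9.42% in leaf, and at 68.4%, 69.3% and 2.85% in the 3 rhizome libraries.

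The rule that chose the genes names their levels across stems of different age and not across plant parts, so the plant part libraries were tested, though earlier results of both sets were known, with edgeR's quasi-likelihood test on the expected counts and calls at an adjusted p under 0.05. PH02Gene36096 was lower in leaf than in part-set stem and branch, and PH02Gene27584 did not pass the test in any of the 6 pairs of parts. PH02Gene36096 had 0.413, 1.46 and 0.369 FPKM in the 3 leaf libraries, against 41.6, 10.7 and 49.5 FPKM in part-set stem. All leaf libraries lay below all part-set stem libraries, and library 2 was the highest in leaf and the lowest in stem. The log2 change was -5.39 ± 1.61 (SE, adjusted p = 0.0223), in a comparison where 36.6% of the 29630 genes tested were called and 19.1% were called lower. The call depended on single libraries, since the adjusted p was 0.0776 without leaf library 1, 0.0802 without leaf library 3 and 0.0508 without part-set stem library 3.

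In branch the 3 libraries had 34.4, 12.2 and 66.7 FPKM of PH02Gene36096, all above the 3 leaf libraries. The log2 change of leaf against branch was -5.37 ± 1.61 (adjusted p = 0.0238, with 34.7% of genes called and 18.3% called lower). Its adjusted p was 0.0824 without leaf library 1, 0.0863 without leaf library 3 and 0.0714 without branch library 3. Branch against part-set stem gave -0.02 ± 1.23 (adjusted p = 0.998, with 0.79% of genes called), and the libraries overlapped. An SE of that size does not show that the levels were alike.

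The rhizome, the underground stem, gave a wide spread. PH02Gene36096 had 71.3, 193 and 0.274 FPKM in rhizome libraries 1, 2 and 3, so that libraries 1 and 2 were above all branch and part-set stem libraries and library 3 was below all 3 leaf libraries. Rhizome library 3 held 3 expected counts and leaf libraries 1 and 3 held 4 and 3.85, so the order among them is within counting error. Leaf against rhizome gave a log2 change of -6.76 ± 1.68 (adjusted p = 0.00704, with 45.8% of genes called and 24.7% called lower), although the libraries of the 2 groups overlapped. With each library left out in turn that change was -7.69 to -5.33 and called every time. Tested on log2(FPKM + 0.1) with limma, none of the 3 leaf calls held (adjusted p = 0.0513 to 0.0761). Rhizome against part-set stem gave 1.37 ± 1.25 (adjusted p = 0.434, with 29.6% of genes called) and rhizome against branch 1.39 ± 1.25 (adjusted p = 0.433, with 28.1% of genes called). Neither rhizome change passed the test, and both changed sign without rhizome library 2 or when tested on log2(FPKM + 1), to values of -0.06 and -0.16 against part-set stem and -0.04 and -0.27 against branch.

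PH02Gene27584 stayed detectable in every part. It had 39.2, 14.0 and 16.8 FPKM in leaf, 85.8, 54.4 and 97.4 FPKM in branch, 33.0, 85.4 and 9.33 FPKM in rhizome and 91.2, 63.8 and 98.0 FPKM in part-set stem. All leaf libraries lay below all branch and part-set stem libraries, and the rhizome libraries spread across both ranges. The log2 change of leaf was -1.79 ± 0.67 against part-set stem (adjusted p = 0.0553) and -1.53 ± 0.66 against branch (adjusted p = 0.0951). These changes lay close to the threshold, and without rhizome library 2, which takes part only through the shared estimate of spread, the adjusted p was 0.0117 and 0.0248. Leaf against part-set stem was also called without rhizome library 3 (adjusted p = 0.0109) and without leaf library 1 (0.0437), and leaf against branch without rhizome library 3 (0.0233).

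For the other pairs the log2 change of PH02Gene27584 was -0.81 ± 0.65 in leaf against rhizome (adjusted p = 0.337), -0.26 ± 0.65 in branch against part-set stem (adjusted p = 0.902), -0.99 ± 0.65 in rhizome against part-set stem (adjusted p = 0.275) and -0.73 ± 0.65 in rhizome against branch (adjusted p = 0.43). Without rhizome library 2 the rhizome changes were -2.12 against part-set stem (adjusted p = 0.0197) and -1.86 against branch (adjusted p = 0.0328). Leaf, branch and rhizome were all set against the same 3 part-set stem libraries.

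**Figure D3:**
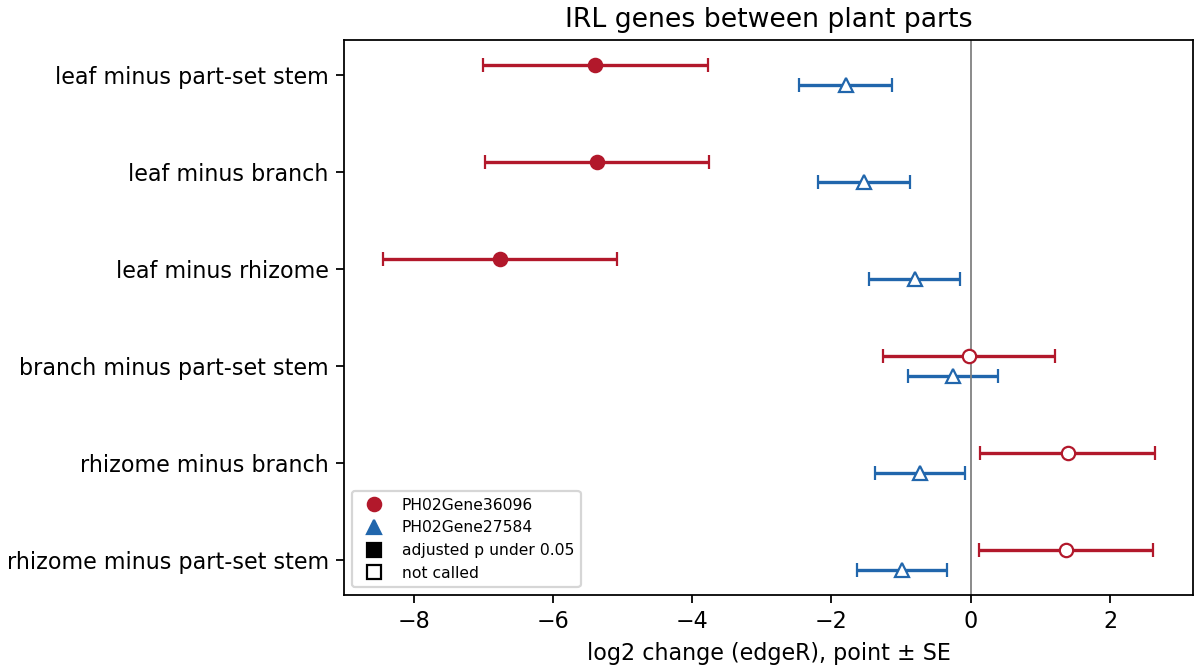
Log2 change of each IRL gene in the 6 pairs of plant parts (first part minus second), as edgeR estimates ± SE over 3 libraries per part, with filled points at an adjusted p under 0.05. The filled points are the 3 comparisons of leaf for PH02Gene36096, at -5.39, -5.37 and -6.76, and none is filled for PH02Gene27584.

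The split between the genes differed widely in the part set. PH02Gene36096 held 1.04% to 9.42% of the summed FPKM in leaf, 18.3% to 40.6% in branch and 14.3% to 33.6% in part-set stem. In rhizome its share was 68.4% and 69.3% in libraries 1 and 2 and 2.85% in library 3. The sum of both genes averaged 24.1 FPKM in leaf, 117 FPKM in branch, 131 FPKM in rhizome and 118 FPKM in part-set stem. In rhizome it ranged from 9.60 to 279 FPKM between libraries.

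Sums of wall formation genes are set beside the IRL genes here, with no test of whether they move together. The list of 84 laccase genes, whose enzymes polymerize lignin, and cellulose synthase A genes summed to 794 to 1596 FPKM in the shoot, 972 to 1008 FPKM in the 0.5-year stem, 141 to 324 FPKM in the 1-year stem and 93.5 to 109 FPKM in the 3-year stem. In the 2-year stem it summed to 99.6, 267 and 100 FPKM, highest in library 2, where both IRL genes were also highest. In rhizome it summed to 342, 637 and 133 FPKM, in the same order as PH02Gene36096. In leaf it summed to 124, 151 and 147 FPKM while both IRL genes summed to 39.6, 15.5 and 17.1 FPKM, the opposite order, in branch to 259 to 318 FPKM and in part-set stem to 165, 209 and 350 FPKM, where the IRL sums were 133, 74.4 and 147 FPKM. Shoot library 3 had the highest wall sum of the growth stages and a lower IRL sum than every 0.5-year library. Of the 84 genes, 34 had a mean of 1 FPKM or more in the shoot, 23 in the 0.5-year stem and 10 in the 3-year stem, and 22, 35 and 39 were at 0 in every library there. Photosynthesis genes were also lower in older stems, at 334 to 1726 FPKM in the shoot, 787 to 875 FPKM in the 0.5-year stem, 244 to 311 FPKM in the 1-year stem, 99.1 to 113 FPKM in the 2-year stem and 72.3 to 179 FPKM in the 3-year stem. In the part set the photosynthesis genes summed to 26920 to 34480 FPKM in leaf, 3231 to 5053 FPKM in branch and 81.8 to 112 FPKM in rhizome. In part-set stem they summed to 8968, 6010 and 2843 FPKM. Leaf had the highest photosynthesis sums and the lowest mean IRL sum among the parts, unlike the growth stages. The part of tissue makeup in the IRL levels was not tested.

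**Figure D4:**
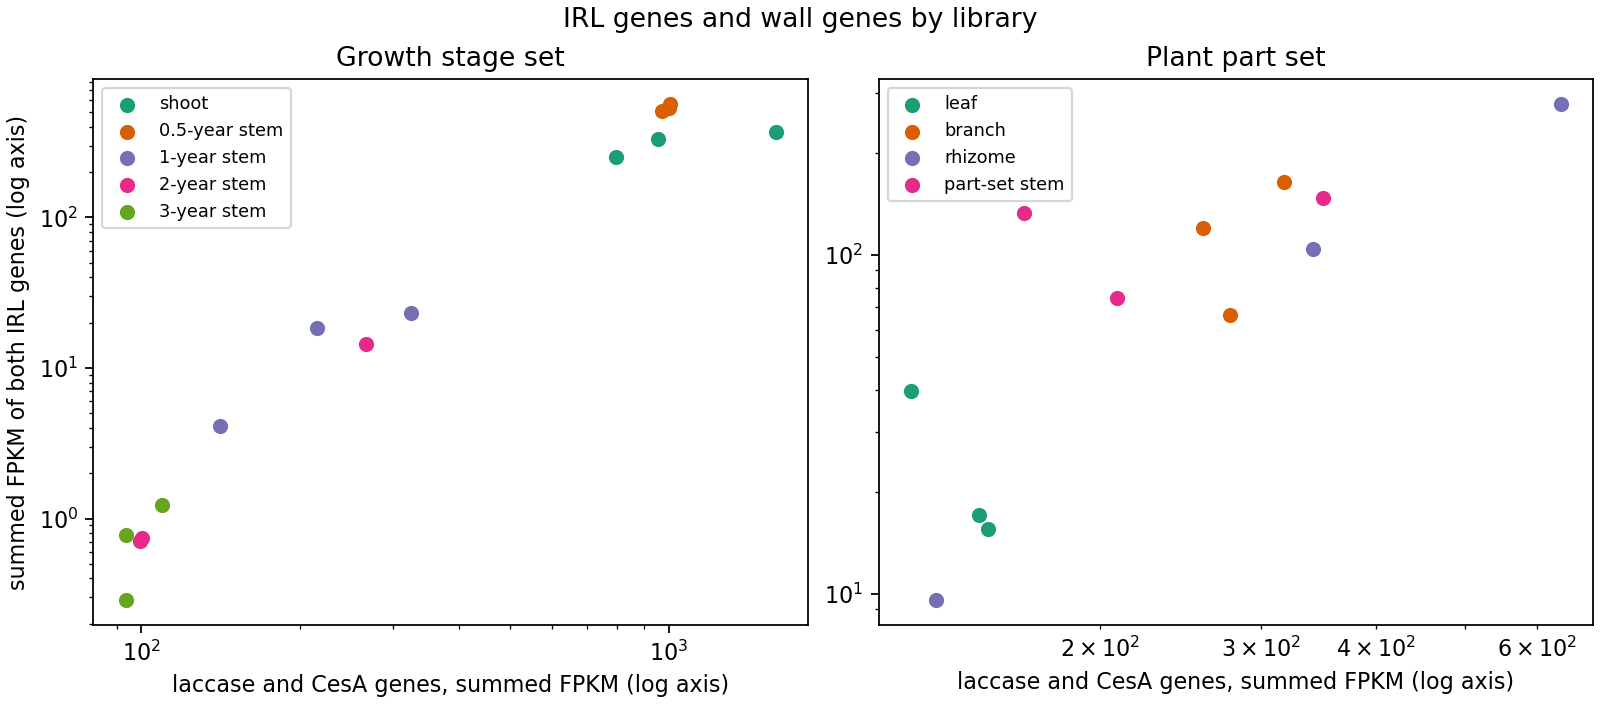
Summed FPKM of both IRL genes against the summed FPKM of 84 laccase and cellulose synthase A (CesA) genes in each library, on log axes, for growth stages (left) and plant parts (right). Library 2 of the 2-year stem, at 267 FPKM of wall genes, lies among the 1-year libraries, and rhizome library 3, at 133 FPKM, lies lowest of the 12 part libraries in IRL.

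Heat shock genes were also highest in the 0.5-year stem among growth stages. The heat shock protein list summed to 7773 to 8104 FPKM in its libraries. It summed to 2759 to 3491 FPKM in the shoot and to 2281 to 4056 FPKM in the 1-, 2- and 3-year stems. At these overlapping sums PH02Gene27584 averaged 156 FPKM in the shoot and 0.601 to 10.5 FPKM in the older stems. In the part set it summed to 3323 to 3359 FPKM in leaf, 7350 to 9214 FPKM in branch, 4682 to 4849 FPKM in rhizome and 30040, 9731 and 7017 FPKM in part-set stem. PH02Gene36096 was highest in rhizome libraries 1 and 2. The group means of PH02Gene27584 were 23.3 FPKM in leaf, 79.2 FPKM in branch, 42.6 FPKM in rhizome and 84.3 FPKM in part-set stem. In leaf and rhizome both these means and the heat shock sums were lower than in branch and part-set stem. Within part-set stem PH02Gene27584 had 91.2, 63.8 and 98.0 FPKM in libraries 1, 2 and 3, not the order of the heat shock sums. The part of heat shock in the 0.5-year levels was not tested.

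Other genes of the isoflavone reductase family were taken by the words of their descriptions. Of 20 such genes besides the 2 above, 12 passed the filter in each set. In the 0.5-year stem against the shoot 5 were called higher and 0 lower, with a median log2 change of 1.31, against -0.04 over all genes, of which 53.8% were called (26.5% higher and 27.3% lower). In the 1-year against the 0.5-year stem 2 were higher and 5 lower, with a median of -1.71, against -0.01 over all genes, of which 30.4% were called (14.4% higher and 16.0% lower). Both comparisons use the same 0.5-year libraries. With those libraries summed to 1 sample, 3 were higher than in the shoot, and 0 were higher in the 1-year stem. The count against the shoot was also 3 without shoot library 1 or 2.

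Between parts, 3 of the 12 were higher and 6 lower in leaf against part-set stem (median -1.73, all genes -0.04, of which 17.5% were called higher and 19.1% lower). The 3 higher were the vestitone reductase-like PH02Gene37963 and the NmrA domain genes PH02Gene41535 and PH02Gene49123. All 6 lower were described as isoflavone reductase-like or as isoflavone reductase homologues. In rhizome against part-set stem 3 of the 12 were higher and 3 lower (median -0.40, all genes 0.00, of which 14.5% were called higher and 15% lower), with 5 lower without rhizome library 3. In branch against part-set stem edgeR called 0, 0 had an unadjusted p under 0.05, and DESeq2 and limma called 0. Over all genes 0.489% were called higher and 0.3% lower in branch.

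PH02Gene49600, another expressed gene with the symbol IRL, stood at a lower level in the same groups as PH02Gene36096. It had 19.1, 37.0 and 34.1 FPKM in the shoot, 55.7, 54.9 and 62.5 FPKM in the 0.5-year stem and 0.583 to 2.36 FPKM in the 1-year stem. Its level was 18.5% to 18.9% of that of PH02Gene36096 in the shoot libraries, 20.0% to 20.9% in those of the 0.5-year stem, 13.7% to 21.7% in branch and 18.4% to 23.9% in part-set stem. In rhizome libraries 1 and 2 it was 7.79% to 9.87%. In the older stems, among libraries with at least 5 FPKM of PH02Gene36096, it was 27.1% to 29.8% in the 1-year stem (2 libraries) and 32.7% in the 2-year stem (1 library). How reads that match both genes were assigned is not stated, so the levels of PH02Gene36096 and PH02Gene49600 are uncertain to that extent. The whole-number counts of PH02Gene27584 show no such split in fractions. Its log2 change was 1.3 ± 0.64 in the 0.5-year stem against the shoot (adjusted p = 0.101) and -5.34 ± 0.79 in the 1-year against the 0.5-year stem (adjusted p = 0.000337).

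In rhizome PH02Gene49600 had 7.04, 15 and 0.059 FPKM, with library 3 lowest as for PH02Gene36096. In leaf against part-set stem it changed by -4.28 ± 1.42 (adjusted p = 0.0355), a call that held in 12 of 20 alternatives. Its adjusted p was 0.102, 0.0503 and 0.107 without leaf library 1, 2 or 3, 0.0656 and 0.0839 without part-set stem library 1 or 3, and 0.0513 without rhizome library 1. The other 3 genes with the symbol IRL were barely seen. PH02Gene19638 and PH02Gene19639 reached at most 2.68 and 1.56 FPKM, both in the shoot, and were at 0 in every stem library of the growth stage set. PH02Gene33506 was at 0 in every library of both sets.

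PH02Gene38360 and PH02Gene38361, described as isoflavone reductase homologues with the symbol of a pinoresinol-lariciresinol reductase, were lower in the 1-year than in the 0.5-year stem, as the IRL genes were. PH02Gene38361 had 17.0 to 20.3 FPKM in the 1-year stem and 107 to 118 FPKM in the 0.5-year stem (log2 change -2.62 ± 0.46, adjusted p = 0.00106). PH02Gene38360 had 3.66 to 4.35 FPKM in the 1-year stem and 30.8 to 32.5 FPKM in the 0.5-year stem (log2 change -3.06 ± 0.42, adjusted p = 0.000211). In rhizome both followed the library order of PH02Gene36096, with library 2 highest and library 3 lowest. PH02Gene38360 had 63.1, 131 and 7.84 FPKM in rhizome, against 4.69, 3.07 and 5.90 FPKM in part-set stem (log2 change 3.88 ± 0.89, adjusted p = 0.00893). The libraries of the 2 parts did not overlap. With only those 6 libraries in the fit the adjusted p was 0.0503.

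PH02Gene38361 had 120, 181 and 63.1 FPKM in rhizome, against 31.4, 19.4 and 35.0 FPKM in part-set stem (log2 change 2.05 ± 0.69, adjusted p = 0.0433). This call held in 10 of 20 alternatives. Its adjusted p was 0.0854 and 0.103 without rhizome library 1 or 2, 0.0837, 0.136 and 0.0812 without part-set stem library 1, 2 or 3, and 0.0627, 0.0567 and 0.0553 without branch library 1, 2 or 3. In leaf PH02Gene38361 changed by -3.54 ± 0.77 against part-set stem (adjusted p = 0.00423), and PH02Gene38360 by -4.10 ± 1.09 (adjusted p = 0.0129, and 0.0505 without leaf library 1).

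PH02Gene48046, with the symbol of the Arabidopsis pinoresinol reductase PRR1, ran opposite to the IRL genes between the 0.5- and 1-year stems. It had 51.0, 63.7 and 69.1 FPKM in the 1-year stem, against 5.14, 5.60 and 5.47 FPKM in the 0.5-year stem (log2 change 3.44 ± 0.67, adjusted p = 0.00184, and 0.106 with the 0.5-year libraries summed). It kept 49.2 to 66.7 FPKM in the 2-year stem and 59.3 to 64.2 FPKM in the 3-year stem. PH02Gene37963, described as vestitone reductase-like, had 17.4 to 33.1 FPKM in the 1-year stem and 9.43 to 10.9 FPKM in the 0.5-year stem (log2 change 1.09 ± 0.26, adjusted p = 0.00645, and 0.137 with those libraries summed).

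**Figure D5:**
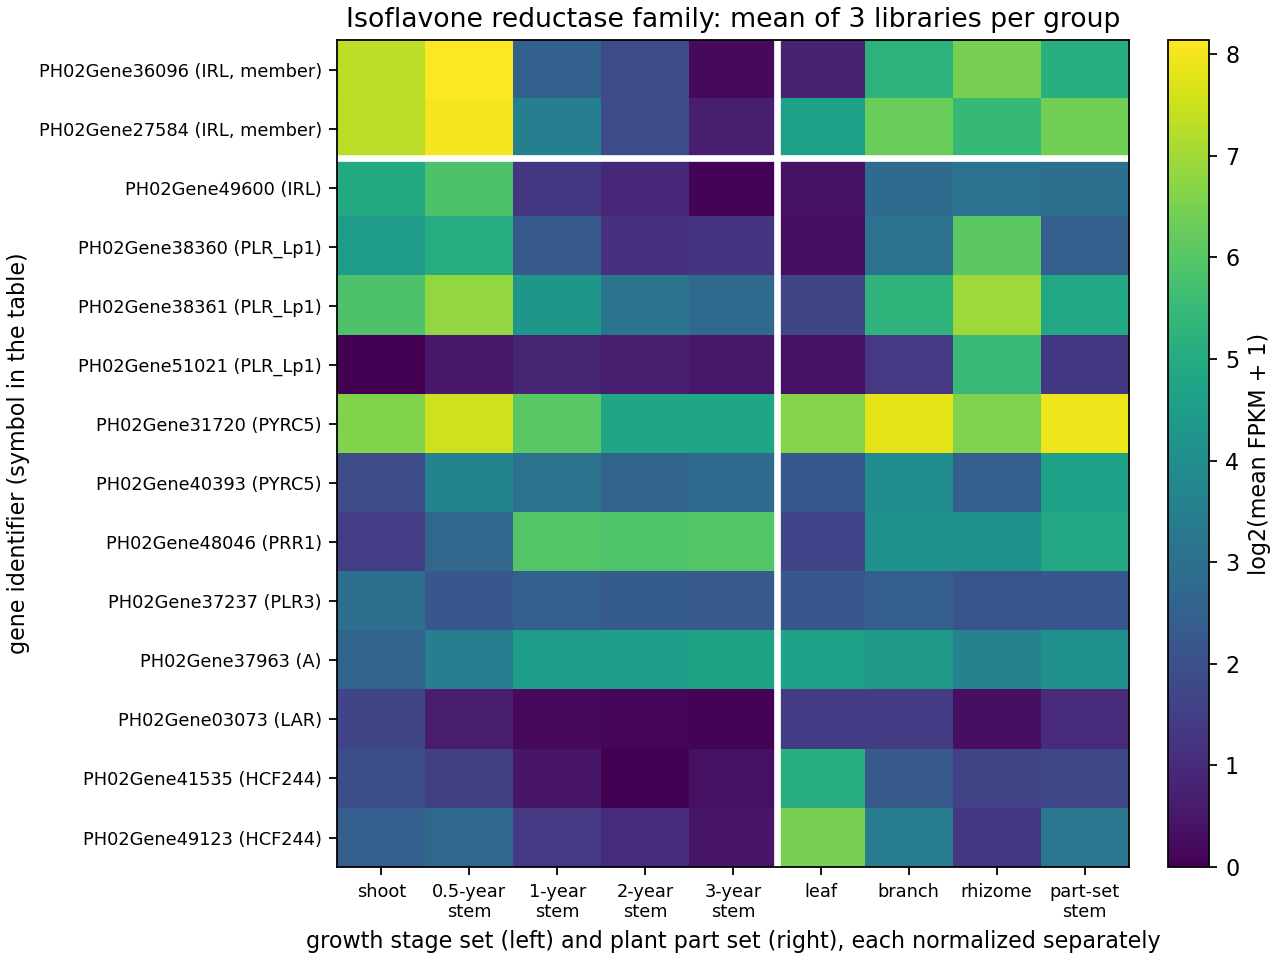
Mean level, as log2(mean FPKM + 1) over 3 libraries, of both IRL genes (top) and of the 12 other isoflavone reductase family genes that passed the filter, in the 9 groups. PH02Gene49600, PH02Gene38360 and PH02Gene38361 have their highest stage means in the 0.5-year stem, as the IRL genes do, while PH02Gene48046 has 61.3 FPKM in the 1-year stem and 5.40 FPKM in the 0.5-year stem.

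The isoflavone reductase-like PH02Gene31720 was the most abundant of these other family genes. It kept 46.7 to 85.8 FPKM in the 1-year stem, against 183 to 192 FPKM in the 0.5-year stem (log2 change -1.55 ± 0.27, adjusted p = 0.000879), and 19.7 to 34.2 FPKM in the 3-year stem. Among parts it had 90.2 to 107 FPKM in leaf and 223 to 265 FPKM in part-set stem (log2 change -1.23 ± 0.28, adjusted p = 0.00594). PH02Gene49123, an NmrA domain gene with the symbol of the Arabidopsis chloroplast protein HCF244, had 74.8 to 93.8 FPKM in leaf, where PH02Gene36096 was near 0, against 6.12 to 10.3 FPKM in part-set stem (log2 change 3.52 ± 0.22, adjusted p = 4.75e-06).

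Of the monolignol list, which includes dirigent proteins, more genes were called higher than lower in the 0.5-year stem and more lower than higher in the 1-year stem. Of 86 tested, 35 were higher and 17 lower in the 0.5-year stem against the shoot (median log2 change 1.02), 60.5% of the list against 53.8% of all genes. In the 1-year against the 0.5-year stem 7 were higher and 35 lower (median -0.82), 48.8% against 30.4% of all genes. With the 0.5-year libraries summed the counts were 18 and 9 against the shoot, and 2 and 14 in the 1-year stem. Of 79 tested, 14 were higher and 11 lower in leaf against part-set stem, and 21 were higher and 11 lower in rhizome. These are 31.6% of the list in leaf, against 36.6% of all genes, and 40.5% in rhizome, against 29.6%. The leaf count of lower genes was 7 without leaf library 3 and 6 without part-set stem library 3. The rhizome count of higher genes was 13 without part-set stem library 1, 7 without part-set stem library 2 and 12 without rhizome library 1. In branch edgeR called 0, with 14 at an unadjusted p under 0.05, 7 called by DESeq2 and 3 by limma.

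Of the sulphur assimilation and glutathione genes, 19 were higher and 5 lower of 54 tested in the 0.5-year stem against the shoot (median log2 change 0.36), and 12 were higher and 10 lower in the 1-year stem. These are 44.4% of the list against the shoot, below the 53.8% of all genes, and 40.7% in the 1-year stem, against 30.4%. With the 0.5-year libraries summed, 10 were higher than in the shoot, and 3 were higher and 2 lower in the 1-year stem. Against the shoot, limma on log2(FPKM + 1) called 11 higher and 15 lower, so the balance of directions depended on the method. The largest rise against the shoot was that of the sulphate transporter SULTR3;1 (PH02Gene03554), at 770 ± 33.6 FPKM in the 0.5-year stem and 19.8 ± 10.9 FPKM in the shoot (log2 change 5.66 ± 0.49, adjusted p = 7.05e-07). The cysteine synthase-like PH02Gene47622 gave the largest fall both in the 1-year stem and in leaf. It had 3.14 ± 0.5 FPKM in the 1-year and 44.6 ± 1.6 FPKM in the 0.5-year stem (log2 change -3.87 ± 0.42, adjusted p = 4.28e-05). In leaf it had 0.15 ± 0.194 FPKM, against 98.9 ± 27.9 FPKM in part-set stem (log2 change -9.22 ± 1.61, adjusted p = 0.00121). Other genes of the list went the other way in the same comparisons. The sulphate transporter SULTR3;3 (PH02Gene00463) had a log2 change of 2.59 ± 0.41 in the 1-year against the 0.5-year stem (adjusted p = 0.000491), and the serine acetyltransferase PH02Gene25353 one of 5.12 ± 0.73 in leaf against part-set stem (adjusted p = 0.000352). The sulphate transporter PH02Gene37348 had one of -3.79 ± 0.44 in the 0.5-year stem against the shoot (adjusted p = 8.75e-06).

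Between parts, 14 sulphur genes were higher and 11 lower of 55 tested in leaf, 7 and 15 in rhizome, and 1 and 1 in branch, each against part-set stem. These are 45.5% of the list in leaf, 40.0% in rhizome and 3.64% in branch, against 36.6%, 29.6% and 0.79% of all genes. The count of lower genes was 7 in leaf without leaf library 1, leaf library 3 or part-set stem library 3, and 9 in rhizome without rhizome library 1. The count of higher genes in rhizome was 3 without part-set stem library 3 and 4 without rhizome library 1. Both branch counts were 0 without branch library 2 or part-set stem library 2, and the higher one also without branch library 1 or 3 or part-set stem library 1.

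In the flavonoid list 11 genes were higher and 6 lower of 42 tested in the 0.5-year stem against the shoot, and 12 were higher and 10 lower in the 1-year stem. These are 40.5% of the list against the shoot, below the 53.8% of all genes, and 52.4% in the 1-year stem, against 30.4%. With the 0.5-year libraries summed these counts were 6 and 3, and 3 and 4. The count higher than in the shoot was 21 without shoot library 3, the count lower was 3 without library 1 of the 0.5-year stem, and the count higher in the 1-year stem was 7 without its library 2. Of 53 tested between parts, 15 were higher and 6 lower in leaf, 9 and 16 in rhizome, and 1 and 0 in branch. These are 39.6%, 47.2% and 1.89% of the list, against 36.6%, 29.6% and 0.79% of all genes. The count of lower genes in leaf was 3 without leaf library 3 or part-set stem library 3, and that of higher genes in rhizome was 5 without part-set stem library 2 and 14 without rhizome library 2. The branch count was 0 without any 1 of the branch libraries and without part-set stem library 1 or 2.

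The genes closest in pattern to each IRL gene were ranked among 23163 described genes that passed the filter in both sets. The measure was the smaller of Pearson's r of log2(FPKM + 1) over the 15 growth stage libraries and over the 12 part libraries, a description without a test, since these libraries fall into groups and are shared by all genes. PH02Gene49600 was closest to PH02Gene36096 (r = 0.996 and 0.984). Next were PH02Gene34632, a quinone reductase of the FQR1 kind (0.958 and 0.960), PH02Gene48249, a DAHP synthase, the entry enzyme of the shikimate pathway (0.992 and 0.948), the receptor-like kinase PH02Gene08074 (0.961 and 0.937) and the chitinase-like PH02Gene04647 (CTL1, 0.961 and 0.924). The DAHP synthase averaged 41.2 FPKM in the shoot, 59.0 FPKM in the 0.5-year stem and 0.279 FPKM in the 3-year stem, and had 1.58 FPKM in leaf and 34.8 FPKM in rhizome.

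The 2 IRL genes were not each other's nearest genes. Their r was 0.992 over growth stages and 0.801 over plant parts, which placed PH02Gene27584 at rank 145 for PH02Gene36096, and PH02Gene36096 at rank 25 for PH02Gene27584. Closest to PH02Gene27584 were PH02Gene20657, a proline synthesis gene described as P5CS2 (0.944 and 0.901), PH02Gene24366, of the actin-binding NETWORKED kind (0.909 and 0.878), PH02Gene15149, a LURP-one-related gene (0.907 and 0.878), PH02Gene07335, a salicylate methyltransferase (0.889 and 0.870), and PH02Gene08388, a phosphatidylinositol transfer protein (0.940 and 0.869). P5CS2 averaged 28.7 FPKM in the 0.5-year stem, 25.6 FPKM in the shoot and 5.27 to 6.10 FPKM in the older stems.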

How the data were processed

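Each set has a table of its own, stacked in 1 deposited file. FPKM and expected counts (whole or fractional estimates) per gene and library were made by the authors, per the file headers, with symbols and descriptions beside them. Per the submitters' processing notes, StringTie 1.3.1, HISAT2 and RSEM were used, with roles not given, and build and strand setting are not given in the sources used here. The number of value columns without a sample was 0.

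Rounded expected counts were tested with edgeR 4.0.16 in R 4.3.3 (quasi-likelihood, TMM, two-sided, Benjamini-Hochberg over all genes of a comparison, calls at 0.05), 1 fit per set over all its groups. A gene was tested if at least 3 libraries of the set had 1 FPKM or more (29538 genes for stages, 29630 for parts). The sets were never tested against each other. In simulated counts for leaf against part-set stem (29630 genes), calls took in 35% of changes of 4-fold and 1% of 2-fold, with 2.7% false among all calls. For the 1-year against the 0.5-year stem (29538 genes) these shares were 64%, 9% and 1.35%. Each simulation changed only 200 genes, while 10843 were called in the data for leaf against part-set stem. The adjustment was therefore stricter in the simulated counts than in that comparison. DESeq2 1.42.0 and limma 3.58.1 served as alternatives, beside other size factors and filters, a block, summed 0.5-year libraries and each library left out.

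Both genes, the lists and the rule for named genes were chosen with earlier results of these data known. Named genes were all with the symbol IRL, the 5 most abundant other family genes per set, the 5 nearest by pattern, and the called gene with the largest rise and the largest fall of each other list per comparison, at a mean of at least 10 FPKM in its higher group. Of the last kind only 5 sulphur genes are printed, chosen after their values were seen.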

Additional observations from a re-analysis of the deposited data

How the results depend on the processing

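The ratios of the 0.5-year stem to every other stage stayed above 1 for both IRL genes under every alternative run, but some moved. With medians of libraries the ratio of the 0.5-year to the 2-year stem was 1154 for PH02Gene36096 and 416.5 for PH02Gene27584, and leaving out 1 library gave 70.95 to 1713 and 70.59 to 457.8. Leaving out 1 library gave 1131 to 4424 for PH02Gene36096 over the 3-year stem. On TMM-normalized CPM the ratio of PH02Gene27584 over the shoot was 2.132.

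With limma on log2(FPKM + 0.1) PH02Gene36096 changed by -5.28, -5.40 and -4.58 in leaf against part-set stem, branch and rhizome (adjusted p = 0.0567, 0.0513 and 0.0761), and none was called. Leaving out 1 library gave -6.31 to -4.99, -6.29 to -4.61 and -7.69 to -5.33. The sign of its change in branch against part-set stem was not stable, at 0.0085 with other size factors, 0.0074 with DESeq2, 0.008 without a filter, 0.0733 with a mean FPKM of 5 or more, 0.1126 with limma on log2(FPKM + 1), 0.1174 with a pseudocount of 0.1, and -0.78 to 0.40 leaving out 1 library. In rhizome it was -0.1623 and -0.7024 with the limma settings against part-set stem and -0.2748 and -0.8198 against branch, and leaving out 1 library gave -0.059 to 1.96 and -0.0392 to 2.15.

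PH02Gene27584 in leaf against part-set stem was called with DESeq2 (-1.74), limma on log2(FPKM + 1) (-1.93) and only the 6 libraries (-1.80), and leaving out 1 library gave -2.35 to -1.53. Against branch it was called with that limma setting (-1.82) and only the 6 libraries (-1.57), with -2.09 to -1.27 leaving out 1. Leaving out 1 library gave -1.36 to 0.32 in leaf against rhizome, -2.12 to -0.50 in rhizome against part-set stem and -1.86 to -0.24 in rhizome against branch.

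With the 0.5-year libraries summed to 1 sample, the 0.5-year stem against the shoot had 3 family genes higher, 6 and 3 flavonoid genes higher and lower, 18 and 9 monolignol genes and 10 sulphur genes higher. In the 1-year against the 0.5-year stem that setting left 0 family genes higher, 3 and 4 flavonoid genes higher and lower, 2 and 14 monolignol genes, and 3 and 2 sulphur genes. In the 0.5-year stem against the shoot limma called 2 family genes lower and 11 and 15 sulphur genes higher and lower, and 1 family gene was lower without a filter and with the replicate block. In branch DESeq2 called 4 flavonoid and 7 monolignol genes higher and 2 sulphur genes lower, limma called 4 flavonoid and 3 monolignol genes higher, and the replicate block left 0 flavonoid and 0 sulphur genes higher. In rhizome the block left 13 monolignol genes higher.

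Leaving out 1 library gave, in the 0.5-year stem against the shoot, 3 to 7 family genes higher and 0 to 1 lower, and 8 to 21 flavonoid genes higher and 3 to 6 lower. It gave 7 to 12 flavonoid genes higher in the 1-year stem. In leaf it gave 3 to 6 flavonoid, 6 to 11 monolignol and 7 to 9 sulphur genes lower, in branch 0 to 1 flavonoid and sulphur genes higher and 0 to 1 sulphur genes lower. In rhizome it gave 3 to 5 family and 9 to 17 sulphur genes lower, and 5 to 14 flavonoid, 7 to 28 monolignol and 3 to 8 sulphur genes higher. Of uncalled changes of other family genes, PH02Gene49600 turned sign in rhizome against part-set stem with limma (-0.4432, and -1.2059 with a pseudocount of 0.1) and the block (-0.0718), and leaving out 1 library gave -1.07 to 0.68 there and -0.80 to 0.10 in branch. PH02Gene38361 ranged from -0.0778 to 0.47 in branch. By Spearman's rho 2 of the 5 nearest genes of each IRL gene stayed among the nearest 5.

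No clear pairing by replicate number was seen. Deviations from the group means correlated at -0.142 to 0.194 between part libraries of one number (median 0.008) and -0.107 to 0.209 between stage libraries (median 0.038). Between libraries of different numbers they correlated at -0.254 to 0.138 (median -0.011) and -0.271 to 0.273 (median -0.008). With 3 libraries per group this does not settle whether libraries of one number share a plant or batch. With the replicate number as a block PH02Gene36096 kept its 3 leaf calls (adjusted p = 0.0453, 0.0488 and 0.0187 against part-set stem, branch and rhizome), and PH02Gene49600 in leaf lost its call (0.0649). Of 61 comparisons of genes under the naming rule 48 were called, 32 of them under every alternative run, 16 lost the call under at least 1, and 0 of the called ones changed direction. The causes were not tested. The self-test recovered 1% of 2-fold changes between parts, with only 200 genes changed. In the data 36.6% of genes were called in leaf against part-set stem, so that recovery does not measure what this comparison could show. Small differences may still have been missed.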
